A study of Homo sapiens with 9 samples.

Results

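The 12 genes described here include those of the phosphatidylinositol 4-kinases (PI4KA, PI4KB, PI4K2A and PI4K2B). The PIP5 kinases (PIP5K1A, PIP5K1B and PIP5K1C) phosphorylate the product of these kinases further. The other genes are PIKFYVE, the PIP4 kinases (PIP4K2A, PIP4K2B and PIP4K2C) and PIP5KL1, a relative of the PIP5 kinases. All 12 genes were picked with earlier results of these data known. Their guides were then taken by gene name, as every row of the sgRNA count table assigned to one of them, which gave 48 sgRNAs of the 3152 in the library (4 per gene, 12 of 763 targeted genes). The screen used RH4, a human fusion-positive rhabdomyosarcoma cell line that carries the PAX3::FOXO1 fusion, infected with lentivirus of the Brunello kinome library, so that each cell should carry Cas9 and a guide against 1 gene. Cells were infected at 1000 cells per sgRNA, put under 0.25 µg/ml puromycin from 48 h on for 72 h, and a portion was taken as baseline; the rest recovered for 72 h and then grew for 10 days. Genomic DNA was sequenced from 3 groups of 3 libraries each, which were 10 days with pralatrexate at 1.5 nM, 10 days with vehicle, and baseline. Pralatrexate is an antifolate, a drug that blocks dihydrofolate reductase. All 3 groups carry the same library, the same Cas9 and the same selection, and all come from 1 cell line. The reads of an sgRNA count the cells of the pool that hold it, and slower division and loss of cells cannot be told apart in them.

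Phosphatidylinositol 4-kinases make PI4P, which marks the Golgi, the plasma membrane and endosomes, and PIP5 kinases turn PI4P into PIP2, the lipid that phospholipase C cleaves and that class I PI3 kinases convert to PIP3. PIP4 kinases make PIP2 from a rarer precursor, PI5P, and are known for roles in autophagy and stress responses. PIKFYVE phosphorylates PI3P on endosomes and is needed for endosome and lysosome traffic.

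The files name sgRNAs by gene and number and hold no guide sequences, so positions are given for genes only. Guides are numbered here in the order of the file. One property of the reference genome (GRCh38, GENCODE v44 annotation) sets 2 of the 12 genes apart. Of the 220 SpCas9 sites (20 bases followed by NGG) that cut in the coding exons of PIP5K1A (chromosome 1, 151197949 to 151249536, plus strand), 118 (53.6%) have an identical copy elsewhere in the genome. Most of these copies lie in PIPSL, a processed fusion copy of PIP5K1A and PSMD4 (98 sites), or in the pseudogenes PIP5K1P1 (53 sites) and PIP5K1P2 (19 sites). PI4KA (chromosome 22, 20707691 to 20859417, minus strand) has such copies for 228 of 1029 sites (22.2%), chiefly in its partial copies PI4KAP2 (218 sites) and PI4KAP1 (202 sites). In the other 10 genes at most 1.60% of the sites have a copy, and PIP4K2A, PIP5K1B and PIP5KL1 have none. The stretches below are shown because a guide at a shared site in them would match more than 1 locus. They were picked as the windows with the most shared sites, so they are not typical of the 2 genes. The first pair is 120 bases of a PIP5K1A coding exon (chr1:151236628-151236747, plus strand) and the matching stretch of PIPSL (chr10:93960427-93960546, minus strand), with the 4 bases of PIPSL that differ in capitals; 18 of the 23 Cas9 sites inside the stretch are the same in both. The second pair is 120 bases of a PI4KA coding exon (chr22:20710719-20710838, minus strand) and of PI4KAP2 (chr22:21476021-21476140, minus strand), which do not differ, and PI4KAP1 (chr22:18536669-18536788, minus strand) has the same 120 bases.
PIP5K1A: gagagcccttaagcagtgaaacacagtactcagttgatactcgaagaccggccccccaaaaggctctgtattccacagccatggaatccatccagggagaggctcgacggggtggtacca
PIPSL: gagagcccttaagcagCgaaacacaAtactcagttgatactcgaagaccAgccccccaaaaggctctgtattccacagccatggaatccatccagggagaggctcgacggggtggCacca
PI4KA: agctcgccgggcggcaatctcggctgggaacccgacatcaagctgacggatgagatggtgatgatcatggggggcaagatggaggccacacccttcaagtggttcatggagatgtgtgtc
PI4KAP2: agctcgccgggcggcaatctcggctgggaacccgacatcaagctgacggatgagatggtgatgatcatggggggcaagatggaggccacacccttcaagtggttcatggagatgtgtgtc
Whether any of the 8 sgRNAs against PIP5K1A and PI4KA lies at such a site was not determined, and the part of copied sites in the results for these genes was not tested.

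Depth ran over 2468136 to 4227230 reads in the pralatrexate libraries, 3194504 to 4602712 in those of vehicle and 3483100 to 4431337 at baseline. The 48 sgRNAs took 1.54% to 1.63% of the reads of each library, and the lowest single count among them was 134 reads, so all 48 passed the minimum of 30 reads on average. Their median level at baseline was 310.2 CPM (reads scaled to library size with TMM factors), beside 309.6 CPM for all sgRNAs. Fold changes below are on the TMM scale unless stated otherwise. Non-targeting sgRNAs, which should cut nowhere, serve as a reference beside it. With vehicle against baseline the 99 that could be tested shifted by a median of 0.31 on the log2 scale (SD 0.13, range -0.05 to 0.67), whereas the median gene shifted by 0.02. An unchanged share of reads therefore lay below the non-targeting guides. Of these 99 guides, 38 were called higher by edgeR at an FDR under 0.05. With pralatrexate against vehicle their median was -0.00 (SD 0.14).

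Vehicle against baseline shows how the guides fared over the 72 h of recovery and the 10 days after it, in the absence of drug. Guides against PIP5K1A, one of the 3 active PIP5 kinases, fell to 0.655 of baseline on average, and PIP5K1A was the 1 gene of the 12 that passed rank aggregation (FDR 0.0326). In all, 9 of the 48 sgRNAs (18.8%) passed the edgeR test at an FDR under 0.05, beside 19% of all sgRNAs tested. Of the 9, 6 were lower (12.8% of all sgRNAs were) and 3 were higher (6.26% of all sgRNAs were). The lower ones were PIP5K1A guides 1, 2 and 4, PIKFYVE guides 1 and 2 and PI4KA guide 4, and the higher ones were PIKFYVE guide 3 and PIP5KL1 guides 3 and 4. The share of called sgRNAs thus lay at the level of the library, and without baseline library 2 the count was 5, beside 14.1% of all sgRNAs. Of the 12 genes 1 was called, against 7.08% of all genes. Set against the non-targeting guides, 25 of the 48 lay below every one of them, against 40.7% of all targeting sgRNAs. In 14 of the 48 every vehicle library was below every baseline library, and in 12 every one was above. The share of such guides over the whole library was not computed, so libraries that do not overlap are given below as description only.

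All 4 PIP5K1A guides averaged less with vehicle than at baseline, with log2 fold changes from -0.77 to -0.49. Guide 1 had 159, 130.4 and 168 CPM with pralatrexate, 176, 144 and 198 CPM with vehicle, and 286, 253 and 240.2 CPM at baseline. Guide 2 had 228, 287 and 187 CPM with pralatrexate, 192, 304 and 224 CPM with vehicle, and 343, 427 and 311 CPM at baseline. Guide 4 had 129, 102 and 118 CPM with pralatrexate, 141, 145 and 126 CPM with vehicle, and 234, 218 and 252 CPM at baseline. In each of these 3 guides every day 10 library was below every baseline library. Guide 3 had 127, 147 and 115 CPM with pralatrexate, 104, 161 and 98.8 CPM with vehicle, and 160.3, 161 and 192 CPM at baseline, and its vehicle and baseline libraries overlapped. The edgeR log2 fold changes of guides 1 to 4 with vehicle against baseline were -0.59 (SE 0.17, FDR 0.0146), -0.58 (SE 0.17, FDR 0.0144), -0.49 (SE 0.21, FDR 0.105) and -0.77 (SE 0.18, FDR 0.00223). Their mean was -0.61 ± 0.12 (SD over 4 sgRNAs), the 71st lowest of 763 genes. With libraries as the replicates, the mean log2 CPM of the 4 guides was 7.33 ± 0.14 with vehicle and 7.95 ± 0.01 at baseline (SD, n = 3 each). A limma fit of those means gave a difference of -0.62 (95% interval -0.78 to -0.46; FDR 3.73e-06).

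The rank aggregation call for PIP5K1A was close to its threshold. It was lost without baseline library 3 (FDR 0.0565), without vehicle library 1 (FDR 0.0728) and without vehicle library 3 (FDR 0.0859), and also when the strongest guide of each gene was left out (mean -0.56, FDR 0.0681) or when libraries were scaled on the non-targeting guides (mean -0.95, FDR 0.0971). The direction was the same in each of these. PIP5K1A ranked 22nd of 759 library genes with a coding annotation by the share of copied Cas9 sites. Taking 20% as a limit set after these values were seen, 61 library genes reached it. Their median log2 fold change was -0.18 with 10 called lower, against 0.03 and 40 called lower among the other 698. The 61 genes include PIP5K1A itself, which is among the 10 called lower, and PI4KA, which is not among them. They also include CDK7 and GTF2H1, which are in the list of broadly essential genes used below. The positions of the guides are not known, and the part of copied sites or of essential genes in these values was not tested.

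For the other active PIP5 kinases no decrease was called. PIP5K1B averaged 0.06 ± 0.21 and PIP5K1C, the isoform known from synapses and focal adhesions, 0.05 ± 0.16 on the log2 scale with vehicle against baseline (SD over 4 sgRNAs each). None of their 8 guides was called in that comparison, and the guides ran from -0.15 to 0.36. The 95% limma intervals were -0.10 to 0.23 for PIP5K1B and -0.11 to 0.21 for PIP5K1C, and neither overlaps the interval of PIP5K1A. The difference between genes was not tested.

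PIP5KL1, a relative of the PIP5 kinases that lacks lipid kinase activity of its own and binds the active isoforms, had guides that disagreed. Guide 3 had 477, 431 and 639.7 CPM with pralatrexate, 458, 535 and 458 CPM with vehicle, and 387, 366 and 351 CPM at baseline, and was higher with vehicle by 0.40 (SE 0.13, FDR 0.0258). For guide 4 the levels were 295, 274 and 264 CPM with pralatrexate, 392, 412 and 334 CPM with vehicle, and 297, 269 and 266 CPM at baseline, a difference of 0.45 with vehicle against baseline (SE 0.13, FDR 0.0120). Its vehicle libraries stood above both other groups, which overlapped each other. Against the non-targeting median guides 3 and 4 lay at 0.08 and 0.14, within the range of the non-targeting guides. Guide 2 went the other way, with 210.1, 232 and 315 CPM with pralatrexate, 208, 300.4 and 315 CPM with vehicle, and 353, 348 and 357 CPM at baseline; its edgeR log2 fold change with vehicle was -0.36 (SE 0.16, FDR 0.114). Guide 1 lay near 0 (0.11, FDR 0.483 by edgeR). The gene mean was 0.15 ± 0.37 (SD over 4 sgRNAs), a spread between guides in the 86.0th percentile of all genes.

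PIKFYVE, which acts on the PI3P of endosomes, showed the widest split between guides of the 12 genes. Guide 2 had 189, 243 and 131 CPM with pralatrexate, 166, 201 and 153 CPM with vehicle, and 273, 329 and 341 CPM at baseline. Guide 1 had 434, 403 and 351 CPM with pralatrexate, 469, 476 and 343 CPM with vehicle, and 553, 672 and 583 CPM at baseline. Guide 4 had 206, 175 and 157 CPM with pralatrexate, 182, 213 and 164 CPM with vehicle, and 264, 242 and 242 CPM at baseline. These 3 guides were lower in every day 10 library than in every baseline library. Guide 3 was the reverse, with 687, 711 and 701 CPM with pralatrexate, 666, 813 and 701 CPM with vehicle, and 465, 528 and 577 CPM at baseline, so that every day 10 library was above every baseline library. In edgeR the log2 fold changes with vehicle against baseline were -0.49 for guide 1 (SE 0.12, FDR 0.00479), -0.86 for guide 2 (SE 0.18, FDR 0.000937), 0.47 for guide 3 (SE 0.10, FDR 0.00104) and -0.42 for guide 4 (SE 0.17, FDR 0.0748). The mean was -0.32 ± 0.57 (SD over 4 sgRNAs), with a spread in the 92.0th percentile of all genes. The gene did not pass rank aggregation for lower guides (FDR 0.248) or for higher ones (FDR 0.713). Guide 3 rose above the non-targeting median by 0.16, within the range of the non-targeting guides. Which of the 4 guides cut their target was not measured.

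Both type III PI4 kinases had all 4 guides below 0 with vehicle against baseline, though neither gene passed rank aggregation. All 8 guides lay below every non-targeting guide, beside 40.7% of all targeting sgRNAs. PI4KA makes the PI4P of the plasma membrane and PI4KB that of the Golgi. For PI4KA, guide 4 had 438, 375 and 446 CPM with pralatrexate, 476, 446 and 407 CPM with vehicle, and 583, 559 and 724 CPM at baseline, a log2 fold change of -0.49 with vehicle (SE 0.12, edgeR FDR 0.00238). Guide 1 had 407, 463 and 379 CPM with pralatrexate, 472, 497 and 456 CPM with vehicle, and 579.7, 513 and 558 CPM at baseline, and did not pass with vehicle (-0.21, SE 0.11, edgeR FDR 0.179). In guides 1, 2 and 4 every vehicle library was below every baseline library, and in guide 3 the groups overlapped. The mean of PI4KA was -0.29 ± 0.16 (SD over 4 sgRNAs; rank aggregation FDR 0.233). PI4KB (chromosome 1, 151291797 to 151327715) averaged -0.37 ± 0.29 (rank aggregation FDR 0.270), and none of its guides was called. Its guide 2, the rarest of the 48, had 39.8, 54.1 and 35.9 CPM with pralatrexate, 45.6, 54.1 and 31.7 CPM with vehicle, and 68.5, 70.1 and 88.9 CPM at baseline, with a log2 fold change of -0.79 with vehicle (SE 0.30, edgeR FDR 0.0673). Guide 1 of PI4KB had 321, 243 and 256 CPM with pralatrexate, 256, 286 and 261 CPM with vehicle, and 378, 336 and 309.9 CPM at baseline. In guides 1 and 2 vehicle was below baseline in every library. Guides 3 and 4 overlapped, and in guide 4 vehicle library 1 stood at 231 CPM while libraries 2 and 3 had 101 and 120.4 CPM.

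These calls depended on how guides were combined. With libraries as replicates, limma on the mean of the 4 guides called 5 of the 12 genes with vehicle against baseline, beside 28.8% of all genes. It called PIP5K1A, PI4KA (-0.29, FDR 0.00361), PI4KB (-0.40, FDR 0.00388) and PIKFYVE (-0.33, FDR 0.0181) lower and PIP4K2A (0.20, FDR 0.0423) higher. This test treats the 4 guides of a gene as 1 quantity and does not ask whether they agree. On the summed reads of each gene, edgeR called 3 lower (PIP5K1A, PI4KA and PI4KB) and PIP4K2A higher, beside 35.4% of all genes called, and PIKFYVE missed the threshold there (-0.17, FDR 0.0590).

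PIP4K2A, the isoform with the highest kinase activity of the PIP4 kinases, had all 4 guides above 0 with vehicle against baseline, at a mean of 0.20 ± 0.11 (SD over 4 sgRNAs; rank aggregation FDR 0.794). Guide 1 had 333, 306 and 387 CPM with pralatrexate, 324, 309.7 and 294 CPM with vehicle, and 254, 228 and 272 CPM at baseline, and every day 10 library was above every baseline library. Against the non-targeting median PIP4K2A lay at -0.11, and with libraries scaled on the non-targeting guides its mean was -0.14, so its direction depends on the scale. PIP4K2B averaged 0.06 ± 0.18 and PIP4K2C -0.11 ± 0.24, with guides from -0.40 to 0.27 and none called in any comparison. The type II PI4 kinases, which act on endosomes and the trans-Golgi, lay near 0 as well. PI4K2A averaged 0.09 ± 0.27 and PI4K2B 0.03 ± 0.31 (SD over 4 sgRNAs each), each with guides on both sides of 0. PI4K2A guide 3 had 506, 475 and 477 CPM with pralatrexate, 534, 583 and 478 CPM with vehicle, and 426, 433 and 449.9 CPM at baseline, while its guide 2 had 219, 229 and 278 CPM with pralatrexate, 204, 257 and 185 CPM with vehicle, and 266, 263 and 270.1 CPM at baseline. The vehicle libraries were all above baseline for guide 3 and all below it for guide 2, and neither passed in edgeR (0.29, FDR 0.0590, and -0.31, FDR 0.177).

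Pralatrexate against vehicle asked whether loss of any of these kinases changed growth under the antifolate. No guide and no gene of the 12 passed. By edgeR 0 of the 48 sgRNAs were called, beside 0.0318% of all sgRNAs. At an unadjusted p under 0.05 there were 2, beside 5.6% of all sgRNAs, and DESeq2 called 1, beside 0.413%. Rank aggregation called 0 of the 12 genes, beside 0.524% of all genes, and 1 had an unadjusted p under 0.05, beside 9.31% of all genes. Limma called 0, beside 0.655% of all genes, with 0 inside all 12 of its 95% intervals, and edgeR on summed reads called 0, beside 0.917%. Gene means ran from -0.15 (PIP5KL1) to 0.07 (PI4KB and PI4K2B) on the log2 scale. The mean of PIP5KL1 was -0.23 without pralatrexate library 3 and -0.047 without its strongest sgRNA. Over the 12 genes no 95% limma interval reached below -0.31 (PIP5KL1, -0.31 to 0.01) or above 0.30 (PI4KB, -0.10 to 0.30). Each interval is for 1 gene, unadjusted for the 12, and covers the spread between libraries of the mean of its guides. Guides that may not cut and spread between guides are not covered, so the intervals do not bound the effect of losing a kinase. For PIP5K1A the interval was -0.24 to 0.08, around mean log2 CPM of 7.25 ± 0.06 with pralatrexate and 7.33 ± 0.14 with vehicle (SD, n = 3 each). The guide that moved most was PIP5KL1 guide 4, whose pralatrexate libraries all lay below its vehicle libraries (-0.45, SE 0.13, edgeR FDR 0.378). Its pralatrexate levels overlapped its baseline levels, and guides 1, 2 and 3 of the gene had -0.12, -0.12 and 0.10. PIP5K1B guide 1 was the other with an unadjusted p under 0.05 (0.26, SE 0.12, edgeR FDR 0.857).

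Pralatrexate against baseline shares its baseline libraries with the vehicle comparison, so the values are given side by side and not as a repeat. Here 14 of the 48 guides (29.2%) passed in edgeR, beside 19.1% of all sgRNAs. There were 9 lower (13.1% of all sgRNAs) and 5 higher (5.98% of all sgRNAs). Of the 99 non-targeting guides, 35 were called higher in this comparison. The count was 7 without pralatrexate library 3 (15.5% of all sgRNAs), 8 without baseline library 1 (13.8%) and 9 without baseline library 2 (14.2%). PIP5K1A guides 1, 2 and 4 were lower again, with log2 fold changes of -0.77 (FDR 0.00163), -0.63 (FDR 0.00887) and -1.01 (FDR 0.000105), and guide 3 had -0.40 (FDR 0.203). PIKFYVE guides 1, 2 and 4 were lower by 0.61 (FDR 0.000597), 0.75 (FDR 0.00366) and 0.48 (FDR 0.0424), and guide 3 was higher by 0.42 (FDR 0.00366), so all 4 were called but not in 1 direction. PI4KA guides 1 and 4 were lower (-0.40, FDR 0.00785, and -0.57, FDR 0.000532), as was PIP5KL1 guide 2 (-0.48, FDR 0.0323). The other 4 higher guides were PIP5KL1 guide 3 (0.49, FDR 0.00545), PIP4K2A guide 1 (0.45, FDR 0.0169), PI4K2B guide 3 (0.33, FDR 0.0353) and PIP5K1C guide 3 (0.32, FDR 0.0360). PI4K2B guide 3 had 623, 517 and 561 CPM with pralatrexate, 604, 572 and 494 CPM with vehicle, and 425, 488 and 443 CPM at baseline. PIP5K1C guide 3 had 618, 571 and 752 CPM with pralatrexate, 631, 619 and 578 CPM with vehicle, and 487, 549.9 and 522 CPM at baseline. In both guides all day 10 libraries were above all baseline libraries, and they lay at -0.01 (PI4K2B) and -0.02 (PIP5K1C) from the non-targeting median.

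At the gene level rank aggregation called 0 of the 12 genes with pralatrexate against baseline, beside 7.47% of all genes; 2 had an unadjusted p under 0.05, beside 23.6% of all genes. PIP5K1A came nearest, at -0.70 ± 0.26 (SD over 4 sgRNAs; FDR 0.0603), to 0.616 of baseline. It passed without baseline library 1 (FDR 0.0454), without baseline library 2 (FDR 0.0455), without pralatrexate library 2 (FDR 0.0413) and when the 2 groups were fitted alone (FDR 0.0434). By limma 4 of the 12 genes were lower and 0 higher, beside 29.8% of all genes called. They were PIP5K1A (-0.70, FDR 8.53e-07), PI4KA (-0.31, FDR 0.00209), PIKFYVE (-0.36, FDR 0.010) and PI4KB (-0.30, FDR 0.0235), and edgeR on summed reads called PIP5K1A, PI4KA and PIKFYVE, beside 38.9% of all genes. The loss of a call between the vehicle and the pralatrexate comparison is not a difference between them, since no test run called PIP5K1A between pralatrexate and vehicle.

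Other kinases of the phosphoinositide network, listed by known role, place these sizes. These lists and that of broadly essential genes were chosen with earlier results of these data known. Over all genes, rank aggregation called 7.08% with vehicle against baseline, 0.524% with pralatrexate against vehicle and 7.47% with pralatrexate against baseline. For the enzymes that use the products of the 12 genes, class I PI3 kinases had 1 of 7 genes called lower with vehicle against baseline, PIK3CA, a catalytic subunit (-1.20, rank aggregation FDR 0.0280). Among 4 PIP3 readers, PDPK1 (-1.63, FDR 0.0167) and AKT1 (-0.51, FDR 0.0242) were called lower. In the class II and III PI3 kinases 1 of 5 was called, PIK3C3 (-1.13, FDR 0.0474), which makes the PI3P that PIKFYVE uses; with pralatrexate against baseline both PIK3C3 (-1.28, FDR 0.0340) and its regulatory subunit PIK3R4 (-0.76, FDR 0.0287) were. Of 11 inositol phosphate kinases only ITPK1 was called (-1.36, FDR 0.0411), and the lists of 10 diacylglycerol kinases and of 4 Golgi partners of PI4P held no call by rank aggregation. No list had a gene called higher by it. With pralatrexate against vehicle the 1 call in the lists was PIK3R1, a regulatory subunit of class I PI3 kinases (-0.40, FDR 0.000277). Its mean was 0.45 with vehicle against baseline (rank aggregation FDR 0.259, limma FDR 0.000580) and 0.05 with pralatrexate against baseline. Its guides were thus lower than with vehicle but near their baseline level. On the same scale 20 broadly essential genes had a median of -1.93 with vehicle against baseline, 16 of them called lower, and the median of the 12 genes was 0.04 beside 0.02 for all genes. PIP5K1A, at -0.61, lay above the median of the essential genes. These differences between genes were not tested, and PDPK1 also has a copy elsewhere for 64.9% of its Cas9 sites.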

How the data were processed

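The authors deposited raw read counts per sgRNA in 1 table for the 9 libraries. The submitters' processing notes name Bowtie 1.0.0, and no counting settings are given in the sources used here. Gene summary tables from MAGeCK, with the authors' rank scores, p-values, false discovery rates and log2 fold changes, were not used. The libraries are described by the study both as triplicate cultures and as technical replicates. The sgRNA, limma and summed-read p-values therefore measure only the spread between libraries, which may be technical. Rank aggregation takes the sgRNAs of a gene as independent, so its p-values rest on how far the guides of a gene agree. The study's text gives a longer puromycin selection than its methods and the labels, which were followed here. No molecular identifiers are mentioned, so PCR copies count as reads and errors rest on the spread between libraries.

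sgRNAs with a mean of at least 30 reads (3145 of 3152, all 48 here) were fitted in edgeR 4.0.16 (R 4.3.3; quasi-likelihood, all 9 libraries, TMM scaling, no term but group), with Benjamini-Hochberg adjustment over all of them and a threshold of 0.05. The coefficient of variation between libraries of a group was 13.2%. Genes were scored by robust rank aggregation, the study's method, of one-sided edgeR p-values (those under 0.25 entering), with an exact null distribution in place of random sgRNA sets and adjustment over 763 genes, each direction apart. The log2 fold changes of the sgRNAs of a gene were averaged. Alternatives were limma 3.58.1 on mean log2 CPM (prior count 2), edgeR on summed reads, DESeq2 1.42.0, scaling on non-targeting sgRNAs, other count minimums, the compared groups alone, a replicate block, leaving out each library, and leaving out the strongest sgRNA. Scripts were tested on simulated data.

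Deviations from group means of same-numbered pralatrexate and vehicle libraries correlated at 0.175, 0.198 and 0.188 across sgRNAs, and differently numbered ones at -0.127 to -0.0486, so the numbers pair the day 10 libraries. With baseline libraries, same-numbered ones correlated at -0.0307 to 0.0706. The main fits and the limma intervals have no term for the pairing of the day 10 libraries. The replicate block has one, and it pairs the baseline libraries by number as well. Within groups, pairs of libraries varied by 10.7 to 25.8 times what sampling gives in a chi-square test, so none was a copy of another. Library genes were matched to GENCODE by symbol or a unique RefSeq synonym (759 of 763), and Cas9 sites were searched on the whole primary GRCh38 sequence. The 12 genes and the neighbour lists were chosen with earlier results of these data known. The rule for named genes was to give single libraries for genes with a called sgRNA, a gene call or the largest mean change of their class, and the others by ranges; neighbours are named where called.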

Additional observations from a re-analysis of the deposited data

How the results depend on the processing

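The 3 libraries a group and the 13.2% spread between them limit what could be seen, and most gene values lay so near 0 that their sign is not settled. Of 540 recomputed gene means 461 kept their direction and side of the threshold, 56 changed sign (none was called, and the largest had a size of 0.20 as reported), 5 lost the call and 18 gained one. Settings with fewer samples have less power by construction. For the others the cause was not tested.

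Counts of called sgRNAs among the 48 with vehicle against baseline were 9 as reported (19% of all sgRNAs tested), 28 (all lower) with scaling on non-targeting sgRNAs (45.5%), 16 with DESeq2 (25.9%), and 5 to 9 over the left-out libraries (14.1% to 17.3%). Counts of called genes there were 1 as reported (7.08% of all genes), 0 with non-targeting scaling (6.55%), 5 with limma (28.8%), 4 on summed reads (35.4%), 0 without the strongest sgRNA (5.11%), and 0 to 1 over the left-out libraries. With pralatrexate against vehicle DESeq2 called 1 sgRNA (0.413% of all), and every other setting run called 0 sgRNAs and 0 genes of the 12. With pralatrexate against baseline the sgRNA count was 14 as reported (19.1% of all), 24 (all lower) with non-targeting scaling (43.2%) and 7 to 14 over the left-out libraries (13.8% to 16.9%), and the gene count was 0 as reported (7.47% of all), 1 with the compared groups alone (7.6%), 4 with limma (29.8%), 3 on summed reads (38.9%) and 0 to 1 over the left-out libraries. The replicate block, which pairs libraries by number, gave 12 sgRNAs (21.3% of all) and 1 gene (PIP5K1A, -0.62, FDR 0.0278) with vehicle against baseline, 0 and 0 with pralatrexate against vehicle, and 15 (20.4% of all sgRNAs) and 0 with pralatrexate against baseline; it changed no gene call.

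Sign changes of uncalled gene means, on the log2 scale, were as follows. Scaling on non-targeting sgRNAs moved the vehicle against baseline means of PI4K2A to -0.25, PI4K2B to -0.31, PIP4K2A to -0.14, PIP4K2B to -0.28, PIP5K1B to -0.27, PIP5K1C to -0.28 and PIP5KL1 to -0.19. It moved the pralatrexate against baseline means of the same genes to -0.26, -0.22, -0.14, -0.26, -0.28, -0.24 and -0.32. Without the strongest sgRNA, vehicle against baseline gave PI4K2B -0.063, PIP4K2B -0.010, PIP5K1B -0.037 and PIP5K1C -0.0039, and pralatrexate against baseline gave PIP4K2B -0.016, PIP5K1B -0.033, PIP5K1C -0.0024 and PIP5KL1 -0.16. Without it, pralatrexate against vehicle gave PI4KA 0.043, PI4K2A 0.0075, PI4K2B -0.0055, PIP4K2A 0.018, PIP4K2B -0.055, PIP4K2C 0.078, PIP5K1B 0.034 and PIP5K1C -0.014, and summed reads gave PIP5K1B 0.021. PIP5KL1 with pralatrexate against baseline was -0.0013 at a minimum of 300 reads, -0.0070 with the replicate block and -0.0095 with limma. Over the left-out libraries, vehicle against baseline ranged over -0.0037 to 0.14 for PI4K2A, -0.017 to 0.067 for PI4K2B, -0.0048 to 0.11 for PIP4K2B and -0.0030 to 0.11 for PIP5K1C. Pralatrexate against vehicle ranged over -0.056 to 0.0050 for PI4KA, -0.0059 to 0.21 for PI4KB, -0.078 to 0.063 for PI4K2A, -0.11 to 0.069 for PIKFYVE, -0.060 to 0.024 for PIP4K2A, -0.043 to 0.068 for PIP4K2B, -0.068 to 0.0040 for PIP4K2C, -0.14 to 0.0082 for PIP5K1A, -0.099 to 0.042 for PIP5K1B and -0.036 to 0.081 for PIP5K1C. Pralatrexate against baseline ranged over -0.037 to 0.10 for PIP5K1B and -0.084 to 0.040 for PIP5KL1.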
